A study of Macaca mulatta with 9 samples.

Results

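The genes described here are 32 genes of cholesterol and lipid synthesis and uptake chosen by gene symbol. Of the 32, 29 were found by name among the 24371 genes of the deposited table. They fall into 4 classes: 17 listed enzymes of sterol synthesis (14 found), 5 genes that control sterol regulatory element binding proteins (SREBPs; all found), 4 fatty acid synthesis enzymes (all found) and 6 genes of cholesterol efflux, sterol transfer and the liver X receptors (LXRs; all found). CYP51A1 and HSD17B7 were not listed under those symbols, but 1 row each, LOC703490 and LOC720399, carries the same gene ID in the RefSeq table, and their values are given apart from the members. ACAT2 had no row by name or gene ID and was not analysed here. The label of the set includes uptake, but the members found contain no lipoprotein receptor; the uptake side is represented by MYLIP, a ubiquitin ligase that acts on such receptors.

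RNA was sequenced from the whole blood of 9 rhesus macaques (Macaca mulatta), all wild type by their labels, with 1 library per animal and 3 animals per group. The animals were assigned at random to an injection of phosphate-buffered saline (PBS, the vehicle), of extracellular vesicles labelled FBMSC (FBMSC_EV) or of extracellular vesicles labelled ABPC (ABPC_EV). The labels do not expand these abbreviations and give no dose, injection schedule, blood sampling time or animal age; the PBS libraries are also called "Old" in the sample descriptions. Whole blood mixes red cell precursors and reticulocytes, leukocytes and platelets, so fewer cells of a type and less RNA per cell cannot be told apart in any value below.

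Cholesterol is built from acetyl-CoA through mevalonate, farnesyl diphosphate, squalene and lanosterol. When membrane sterol is low, SCAP escorts SREBPs from the endoplasmic reticulum to be cleaved, and the released factors switch on the synthesis enzymes; when sterol is high, INSIG proteins hold SCAP back and oxysterols activate LXRs, which switch on efflux transporters. Some leukocytes carry out these steps, whereas mature red cells make no new sterol.

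The deposited values are log2 values of a quantity that sums to the same total in each library; it is called the per-million value here and, being adjusted for length, behaves like TPM. In such a unit the abundant transcripts set the room left for all others. The 8 erythroid marker genes (haemoglobin genes and others of red cells) took 88.5 to 92.9% of the total in the PBS libraries, 82.7 to 87.9% in FBMSC_EV and 71.2 to 82.8% in ABPC_EV. The FBMSC_EV and ABPC_EV ranges both lay wholly below the PBS range. Whole read numbers recovered from the values gave 11825020 to 14478087 reads per library, of which 3088730 to 8211966 lay outside the erythroid list. Members received 3318 to 5919 reads in the PBS libraries, 7418 to 10007 in FBMSC_EV and 9951 to 14560 in ABPC_EV. For these reasons each result is given as deposited and again after division by a median-ratio size factor per library (0.328 to 2.44), which sets the typical gene to the same level in all libraries and gives what is called the scaled value below.

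Summed over each class, the members were higher in ABPC_EV than in PBS as deposited, and the sterol synthesis sum was nearly level among the 9 libraries after scaling. As deposited, the 14 sterol synthesis genes summed to per-million values of 13.0, 19.6 and 34.4 in the PBS libraries, 40.4, 51.7 and 41.3 in FBMSC_EV and 62.3, 95.3 and 98.1 in ABPC_EV. No 2 groups overlapped, and the highest library was 7.57 times the lowest. After scaling, the same sum was 39.5, 41.7 and 45.8 in PBS, 41.1, 43.4 and 43.5 in FBMSC_EV and 42.2, 44.2 and 40.3 in ABPC_EV. The group means of the scaled sum were 42.3 ± 3.20, 42.6 ± 1.38 and 42.2 ± 1.97 (SD, n = 3 each), and the highest library was 1.16 times the lowest. Both extremes of the scaled sum were PBS libraries.

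The other classes varied more after scaling. The 5 SREBP control genes summed to 27.1 ± 1.89 in PBS, 28.0 ± 1.25 in FBMSC_EV and 31.2 ± 1.51 in ABPC_EV (SD, n = 3 each). Each ABPC_EV library (29.5, 32.5 and 31.6) was above the highest PBS library (29.3). Of the 5 genes only SREBF2 separated these 2 groups by itself, and SCAP had its lowest value of all libraries in ABPC_EV replicate 1 (6.62). The 4 fatty acid synthesis genes summed to 10.9 ± 0.942 in PBS and 15 ± 1.78 in ABPC_EV, without overlap, while FBMSC_EV spread from 9.55 to 16.1. Most of that sum is ACLY. The 6 efflux and LXR genes summed to 45.2 ± 7.68, 47.3 ± 10.4 and 39.4 ± 12.2, and every group overlapped every other. No test was run on the sums.

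**Figure D1:**
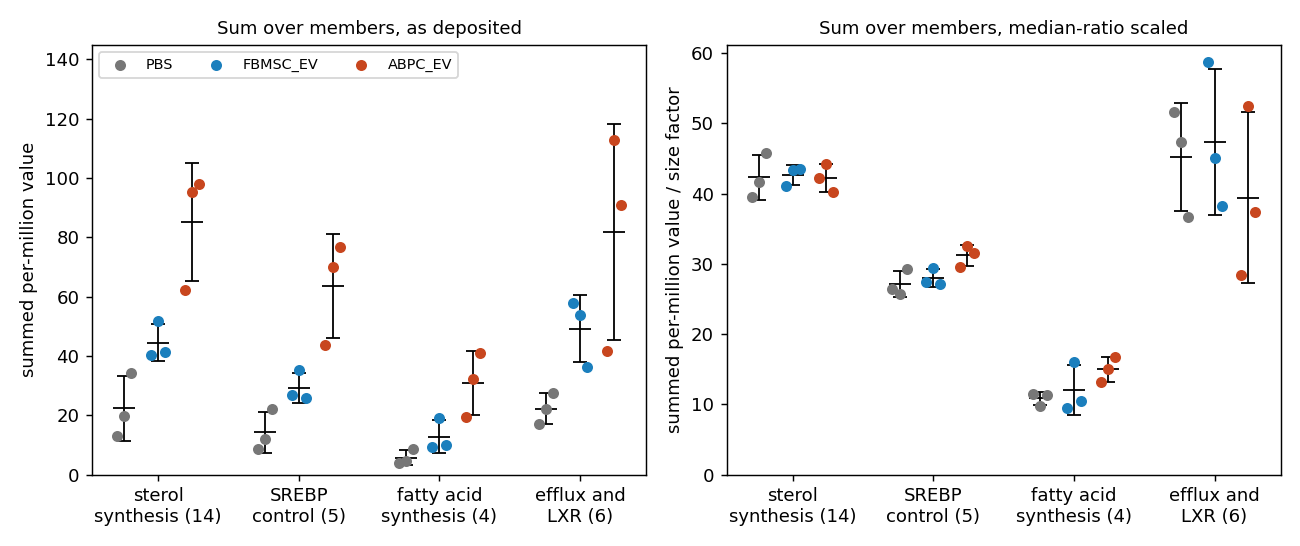
Summed per-million value of the members of each class (number of genes in brackets) as deposited (left) and after median-ratio scaling (right); points are single animals, bars the mean and SD of 3. As deposited the ABPC_EV points are highest in the first 3 classes; after scaling the sterol synthesis sums lie between 39.5 and 45.8 in all 9 libraries.

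At the level of single genes, 26 of the 29 members reached the minimum for testing, a per-million value of at least 1 in at least 3 libraries. MVK, DHCR7 and SCD did not. For ACACA and STARD4 the libraries at 1 or more were ABPC_EV libraries only, so the filter itself favoured a difference for these 2 genes. All tests below are limma fits across 10596 genes and 9 libraries, on log2(value + 1), with Benjamini-Hochberg adjusted p-values over all genes and a threshold of 0.05; log2 changes on that scale understate the change of low genes.

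As deposited, the 26 tested members were called higher in ABPC_EV than in PBS, as were 90.9% of all genes tested. Their log2 changes ran from 0.91 (PMVK, SE 0.34, adjusted p = 0.0146) to 2.28 (ACLY, SE 0.41, adjusted p = 0.000417), with a median of 1.47 against 1.41 over all genes. All 26 had every ABPC_EV library above every PBS library, a separation seen in 85.4% of all genes. Both counts include ACACA and STARD4, which passed the filter through ABPC_EV libraries only. With a filter on the mean over all libraries, which drops these 2 genes, 24 of 24 members were called higher, as were 9077 of 9879 genes. With no filter on low values 28 of 29 members were called, against 47.9% of all genes, and the member not called was ABCG1 (1.15, adjusted p = 0.0582). The medians by class were 1.43 for sterol synthesis, 1.87 for SREBP control, 1.61 for fatty acid synthesis and 1.40 for efflux and LXR. The erythroid list was also taken out of the table and the rest of each library brought to the same total. Then 0 of these 26 members remained called (adjusted p from 0.0989 to 0.807), and 25 of 26 changes stayed positive. More genes passed the filter in that fit, 15336 with 28 members, and 0 of the 28 were called. Of all genes in it 0.104% were called higher, but their median change was still 0.71, against 1.41 with the list kept. The share of all genes with a positive change was not counted there.

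Neither of the other 2 contrasts gave a called member as deposited. For FBMSC_EV against PBS, 0 of 26 were called higher, against 0.255% of all genes, and 16 (61.5%) were higher at an unadjusted p under 0.05, against 43.6% of all genes; the member median was 0.80 and the median of all genes 0.70. Groups did not overlap for 12 members, against 50.9% of all genes. Without PBS replicate 3 the count of members called became 13, and 43.3% of all genes were then called higher. In ABPC_EV against FBMSC_EV, 0 of 26 were called higher, against 0.585% of all genes, and 15 (57.7%) were higher at an unadjusted p under 0.05, against 48% of all genes, with medians of 0.75 and 0.71. Here the groups did not overlap for 16 members, against 50.5% of all genes. The count of members called became 14 without ABPC_EV replicate 1 (45.6% of all genes called higher) and 8 without PBS replicate 3 (25.6%). It was 1 without FBMSC_EV replicate 2 (3.89%) and 1 without ABPC_EV replicate 2 (4%). Limma-voom on the recovered reads also called 0 members in both contrasts.

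After median-ratio scaling no member was called in any contrast, and 0% of all genes were. For ABPC_EV against PBS, 19 of the 26 log2 changes were positive (73.1%, against 52.1% of all genes), the median was 0.12 against 0.02, and the range was -0.69 to 0.51. The 19 include ACACA and STARD4, which passed the filter through ABPC_EV libraries only. With the filter on the mean, which left 24 members, the member median relative to all genes was 0.12, against 0.10 with 26. An unadjusted p under 0.05 was reached by 2 members, ACLY upwards (3.33% of all genes) and PMVK downwards (6.78%). Groups did not overlap for 4 members with ABPC_EV higher (EBP, SREBF2, ACLY and NR1H3), against 6.78% of all genes, and for 1 with ABPC_EV lower (PMVK), against 7.26%. The typical 95% interval of a member's change, not adjusted for the number of genes, reached 0.49 to either side. A scaled log2 difference smaller than that was not resolved with 3 animals per group. Larger ones could be missed too, since the changes of -0.69 (PMVK) and 0.51 (ACLY) were not called after adjustment. Limma-voom on the recovered reads called 0 members as well.

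**Figure D2:**
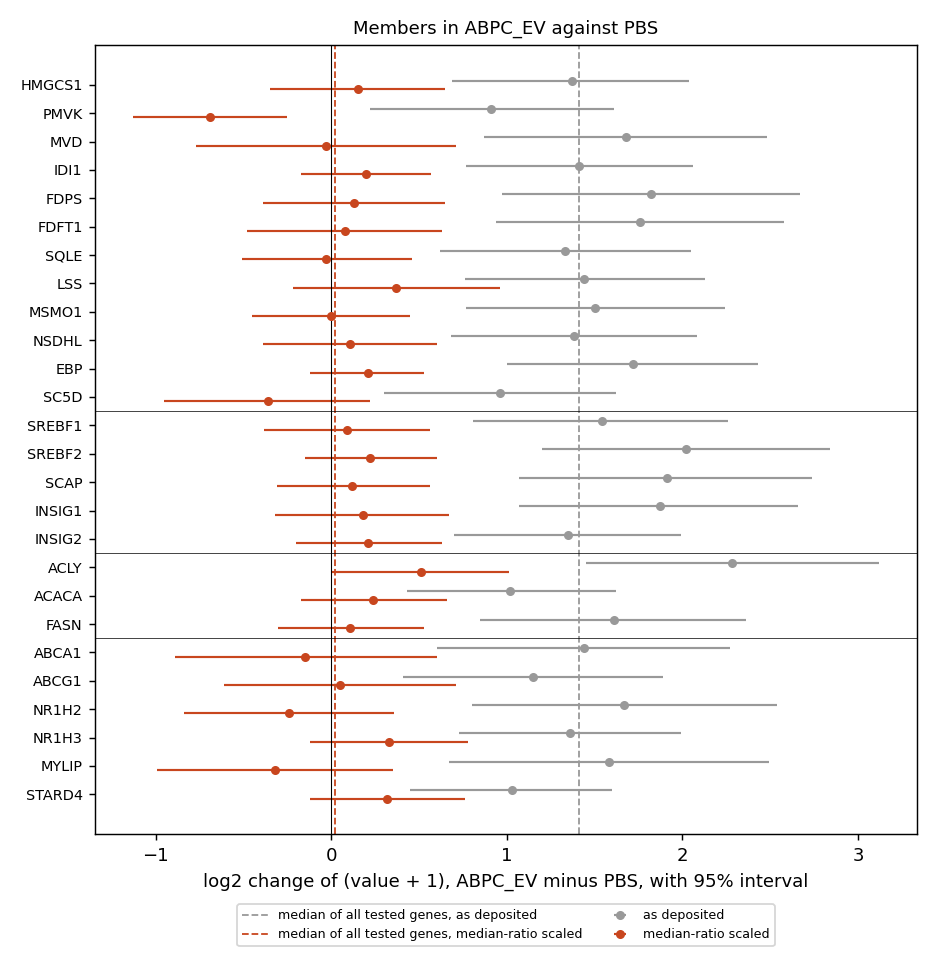
Log2 change of (value + 1) from PBS to ABPC_EV for the 26 tested members, in the order sterol synthesis, SREBP control, fatty acid synthesis, efflux and LXR; points are limma estimates, bars 95% intervals, dashed lines the median of all tested genes. As deposited (grey) the members lie around the all-gene median of 1.41; after scaling (red) they lie around 0.02, with PMVK at -0.69 and ACLY at 0.51 at the ends.

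In level, which can be compared between genes because the values are per length, the members ran from moderate to barely read. Averaged over the 9 libraries after scaling, NR1H2 (19.2), MYLIP (17.8), SREBF2 (9.47), ACLY (8.78) and SCAP (8.68) led, at the 89.5th, 88.7th, 79.0th, 77.2nd and 77.0th percentiles of the tested genes. FDPS (6.4), FDFT1 (6.31), INSIG1 (6.22) and MVD (5.94) followed, and most other sterol enzymes lay between 1.41 (LSS) and 4.11 (PMVK). At the low end were ACACA (0.655), STARD4 (0.606), MVK (0.479), DHCR7 (0.401) and SCD (0.0572). As deposited PBS replicate 1 was the lowest library for 27 of the 29 members and ABPC_EV replicate 3 the highest for 20; after scaling these counts were 6 and 8. Across the tested members the highest library was a median of 9.62 times the lowest as deposited and 2.11 times after scaling.

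The mevalonate steps did not share a direction after scaling. HMGCS1, which makes HMG-CoA at the head of the pathway, had scaled values of 1.46, 1.29 and 2.28 in PBS, 1.41, 2.72 and 1.99 in FBMSC_EV and 2.61, 1.55 and 1.75 in ABPC_EV. It was read 35 to 214 times per library, all groups overlapped, and the change from PBS to ABPC_EV was 0.15 (SE 0.22, adjusted p = 0.841). PMVK, the kinase that makes mevalonate diphosphate, had scaled values of 5.85, 5.97 and 4.53 in PBS, 4.84, 3.36 and 3.39 in FBMSC_EV and 3.37, 3.40 and 2.28 in ABPC_EV. All 3 ABPC_EV libraries were below all 3 PBS libraries, and 2 of 3 FBMSC_EV libraries were too.

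The PMVK change from PBS to ABPC_EV was -0.69 (SE 0.20, 95% interval -1.13 to -0.25), with the smallest p of all members but an adjusted p of 0.253. As deposited the same gene was higher in ABPC_EV, with per-million values of 4.97, 7.32 and 5.55 against 1.92, 2.81 and 3.40, the smallest change of the 26. That call was lost without PBS replicate 1 (0.75, adjusted p = 0.0612), without ABPC_EV replicate 2 (0.77, adjusted p = 0.0784) and in the voom fit (0.55, adjusted p = 0.179). MVD, which follows PMVK in the pathway, showed no group pattern: its scaled values were 8.01, 5.71 and 3.86 in PBS, 7.81, 4.70 and 5.57 in FBMSC_EV and 3.91, 9.42 and 4.43 in ABPC_EV.

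IDI1, which isomerises the isoprene unit, stood out in the FBMSC_EV group. Its scaled values were 1.77, 1.09 and 1.52 in PBS, 2.45, 2.30 and 2.52 in FBMSC_EV and 1.90, 1.43 and 2.16 in ABPC_EV. Every FBMSC_EV library was above every library of the other 2 groups. The change from PBS to FBMSC_EV was 0.49 (SE 0.17, 95% interval 0.11 to 0.86, unadjusted p = 0.0164), with an adjusted p of 0.955. It was described after its values were seen, and is the 1 member with an unadjusted p under 0.05 in that contrast, where 2.19% of all genes were higher at that level.

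After scaling FDPS, FDFT1 and SQLE of the squalene branch differed little between PBS and ABPC_EV, and no change in this branch was resolved. FDPS, which makes farnesyl diphosphate, averaged 6.28 in PBS and 6.77 in ABPC_EV, and FDFT1, squalene synthase, 5.93 and 6.23. SQLE, the squalene epoxidase, averaged 2.63 and 2.49. Within PBS alone FDPS ran from 4.94 to 8.68, a range that contained every ABPC_EV value (6.11, 7.52 and 6.68), and SQLE from 1.83 to 3.80, which contained 2.98, 2.31 and 2.17. None of these 3 differed by more than 0.13 on the log2 scale, with adjusted p-values from 0.873 to 0.974. Leaving out 1 library turned the sign for FDPS (PBS replicate 2, -0.00), for FDFT1 (PBS replicate 1, -0.08) and for SQLE (PBS replicate 3, 0.20, and ABPC_EV replicates 2 and 3, 0.02 and 0.04). LSS, which closes squalene epoxide to lanosterol, had the widest spread of the tested members: 0.348, 1.53 and 1.86 in PBS, 1.31, 1.43 and 0.949 in FBMSC_EV and 1.52, 1.79 and 1.99 in ABPC_EV. PBS replicate 1 was low with 12 reads, and the ABPC_EV change was 0.37 (SE 0.26, adjusted p = 0.680).

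Among the late enzymes, which turn lanosterol into cholesterol, EBP and SC5D lay in opposite directions. EBP, the sterol isomerase, had scaled values of 2.71, 3.38 and 3.20 in PBS, 3.18, 2.99 and 3.14 in FBMSC_EV and 3.38, 3.77 and 4.02 in ABPC_EV. The lowest ABPC_EV value (3.379) was next to the highest PBS value (3.377), and the change was 0.21 (SE 0.14, adjusted p = 0.672). EBP varied least of all tested members, by 1.49 times from the lowest to the highest library.

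SC5D, the desaturase of the following step, had scaled values of 2.78, 3.14 and 1.80 in PBS, 4.03, 3.33 and 2.66 in FBMSC_EV and 3.06, 1.21 and 1.30 in ABPC_EV. ABPC_EV replicates 2 and 3 were the lowest of the 9 libraries, whereas ABPC_EV replicate 1 was within the PBS range. The change was -0.36 against PBS (SE 0.26, adjusted p = 0.681) and -0.65 against FBMSC_EV (SE 0.26, unadjusted p = 0.0333, adjusted p = 0.93). MSMO1, which takes part in removing methyl groups on the way from lanosterol to cholesterol, was lower in every FBMSC_EV library (2.27, 2.60 and 2.47) than in every PBS library (2.81, 3.31 and 4.51), with a change of -0.38 (SE 0.20, adjusted p = 0.998). NSDHL, of the same steps, had a change of 0.11 from PBS to ABPC_EV (SE 0.22, adjusted p = 0.885); leaving out PBS replicate 2 made it -0.02 and leaving out ABPC_EV replicate 2 made it -0.00.

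The 3 members under the filter were thinly read. MVK, mevalonate kinase, had 6 to 55 reads per library, DHCR7, the last reductase of one branch of the pathway, 4 to 83, and SCD, the fatty acid desaturase, 1 to 14. Fitted with no filter, their scaled changes from PBS to ABPC_EV were 0.03 for MVK (SE 0.13), 0.30 for DHCR7 (SE 0.17) and 0.04 for SCD (SE 0.04), with adjusted p-values of 0.973, 0.743 and 0.763. The rows that share gene IDs with CYP51A1 and HSD17B7 had scaled changes of 0.44 (LOC703490, SE 0.23, adjusted p = 0.559) and 0.45 (LOC720399, SE 0.22, adjusted p = 0.532).

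Of the SREBP control genes, SREBF2, SCAP and INSIG1 ranked among the 8 highest members in level, and SREBF1 and INSIG2 lower. SREBF2, the factor that chiefly drives cholesterol genes, had scaled values of 8.48, 8.59 and 10.3 in PBS, 7.44, 8.72 and 9.39 in FBMSC_EV and 10.7, 11.2 and 10.5 in ABPC_EV. All 3 ABPC_EV libraries were the highest of the 9, PBS replicate 3 coming next. The changes were 0.22 against PBS (SE 0.17, adjusted p = 0.695) and 0.31 against FBMSC_EV (SE 0.17, adjusted p = 0.93). As deposited it was 2.78, 4.05 and 7.72 in PBS and 15.8, 24.0 and 25.5 in ABPC_EV, a change of 2.02 (SE 0.40, adjusted p = 0.000417).

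The remaining control genes had scaled ABPC_EV against PBS changes of 0.09 (SREBF1, the factor of fatty acid genes), 0.12 (SCAP), 0.18 (INSIG1) and 0.21 (INSIG2), with SEs from 0.18 to 0.22 and adjusted p-values from 0.733 to 0.901. The SREBF1 sign turned without PBS replicate 3 (-0.04) and without ABPC_EV replicate 2 (-0.02). INSIG1, itself an SREBP target, had scaled values of 5.93, 4.42 and 7.71 in PBS, 6.14, 6.53 and 4.68 in FBMSC_EV and 8.31, 6.35 and 5.88 in ABPC_EV, and all groups overlapped. SCAP had values of 8.47, 7.76 and 7.97 in PBS and 8.59, 9.63 and 8.59 in FBMSC_EV, where the groups did not overlap. The same held for INSIG2, at 1.031, 1.503 and 1.295 in PBS and 2.040, 1.848 and 2.020 in FBMSC_EV. Neither passed adjustment (both 0.998).

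ACLY, which makes cytosolic acetyl-CoA from citrate for both sterol and fatty acid synthesis, had the largest positive change of the members on both scales. Its scaled values were 8.27, 6.38 and 7.07 in PBS, 6.81, 11.8 and 6.72 in FBMSC_EV and 9.75, 10.7 and 11.6 in ABPC_EV. ABPC_EV lay above PBS without overlap, and FBMSC_EV replicate 2 reached the highest value of the 9. The change was 0.51 (SE 0.23, 95% interval 0.00 to 1.01, unadjusted p = 0.0497, adjusted p = 0.493). As deposited ACLY had per-million values of 2.713, 3.003 and 5.308 in PBS, 6.691, 14.04 and 6.373 in FBMSC_EV and 14.38, 23.07 and 28.19 in ABPC_EV, where no ABPC_EV library overlapped the other 2 groups. FASN, the fatty acid synthase, had scaled values of 2.88, 2.88 and 3.45 in PBS, 2.27, 3.46 and 3.03 in FBMSC_EV and 2.65, 3.53 and 4.12 in ABPC_EV, with overlap throughout. ACACA, which makes malonyl-CoA, and FASN had changes of 0.24 (SE 0.18, adjusted p = 0.695) and 0.11 (SE 0.18, adjusted p = 0.855).

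**Figure D3:**
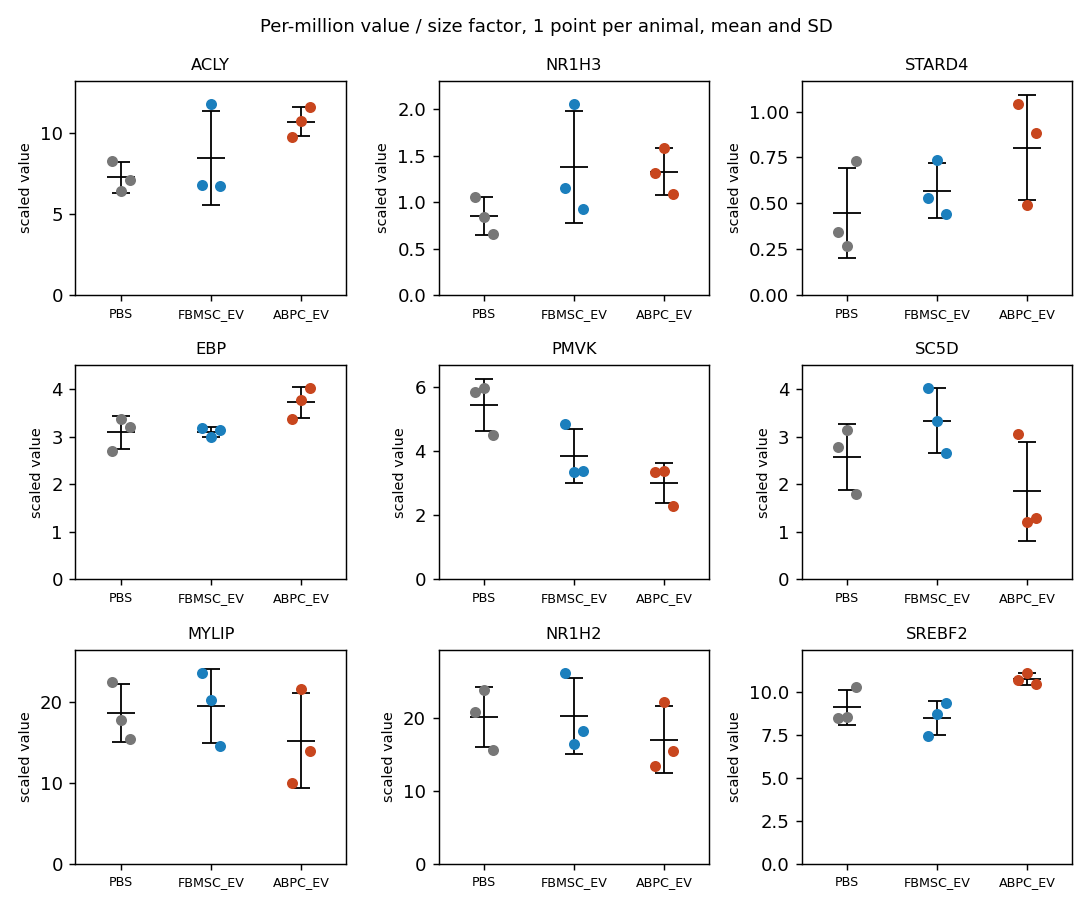
Scaled per-million value of 9 members, those with the 4 smallest p-values in each direction for ABPC_EV against PBS and those with the highest levels; each point is 1 animal, bars the mean and SD of 3, each axis starting at 0. ACLY, NR1H3, EBP and SREBF2 are higher and PMVK lower in ABPC_EV than in PBS without overlap; the other 4 overlap.

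Genes of efflux and LXR signalling included the 2 most abundant members. NR1H2 (LXR beta) led with a mean scaled value of 19.2 over the 9 libraries, at the 89.5th percentile of tested genes, followed by MYLIP at 17.8. NR1H2 had scaled values of 20.9, 23.8 and 15.6 in PBS, 26.3, 16.5 and 18.3 in FBMSC_EV and 13.4, 22.2 and 15.5 in ABPC_EV. MYLIP had 22.6, 17.8 and 15.5 in PBS, 23.7, 20.3 and 14.6 in FBMSC_EV and 10.1, 21.7 and 14 in ABPC_EV. In both genes FBMSC_EV replicate 1 was highest, ABPC_EV replicate 1 lowest, and all groups overlapped. The ABPC_EV against PBS changes were -0.24 for NR1H2 (SE 0.27, adjusted p = 0.790) and -0.32 for MYLIP (SE 0.30, adjusted p = 0.749).

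NR1H3 (LXR alpha, the macrophage-enriched receptor) had scaled values of 1.06, 0.842 and 0.653 in PBS, 1.15, 2.06 and 0.926 in FBMSC_EV and 1.31, 1.58 and 1.09 in ABPC_EV. The lowest ABPC_EV library was just above the highest PBS library, and the change was 0.33 (SE 0.20, adjusted p = 0.625). STARD4, which carries sterol between membranes, had 0.344, 0.268 and 0.729 in PBS, 0.528, 0.735 and 0.442 in FBMSC_EV and 1.04, 0.488 and 0.882 in ABPC_EV. Its groups overlapped, its reads numbered 11 to 120, and the change was 0.32 (SE 0.20, adjusted p = 0.628).

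The transporters ABCA1 and ABCG1, both classic LXR targets that export cholesterol, did not separate the groups. ABCA1 had scaled values of 5.26, 3.67 and 3.12 in PBS, 6.69, 3.79 and 2.90 in FBMSC_EV and 1.89, 5.19 and 3.96 in ABPC_EV. ABCG1 had 1.54, 0.876 and 1.08 in PBS, 0.362, 1.74 and 1.06 in FBMSC_EV and 0.622, 1.30 and 1.96 in ABPC_EV. FBMSC_EV replicate 1 thus held the highest ABCA1 value and the lowest ABCG1 value of the 9 libraries. Their ABPC_EV against PBS changes were -0.15 for ABCA1 (SE 0.33) and 0.05 for ABCG1 (SE 0.29), with adjusted p-values of 0.898 and 0.961; the ABCA1 change was 0.17 without ABPC_EV replicate 1 and 0.02 without PBS replicate 1, and the ABCG1 change was -0.14 without ABPC_EV replicate 3 and -0.05 without PBS replicate 2. By Pearson correlation ABCA1 and MYLIP were the closest of the 325 pairs of tested members among the 9 libraries (Pearson r = 0.91, exact permutation p = 0.000645, adjusted 0.21). Their Spearman rho was 0.83 (exact permutation p = 0.00827, adjusted 0.419). Without the 2 libraries farthest from the median of ABCA1, r was 0.79. By Spearman correlation FDPS and NSDHL ranked above ABCA1 and MYLIP (rho = 0.85, exact permutation p = 0.00607, adjusted 0.419). The Pearson r of FDPS and NSDHL was 0.88 (exact permutation p = 0.00244, adjusted 0.251), and 0.82 without the 2 libraries farthest from the median of FDPS. After adjustment 0 of the 325 pairs passed by either measure, and 39 (12%) had an unadjusted Pearson p under 0.05. Of these 39, 22 were positive and the rest negative. The same share over pairs of all tested genes was not computed, so the 12% does not show that the members vary together more than other genes.

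After scaling, the number of the 29 members that were highest in a given library ran from 0 (PBS replicate 1) to 8 (ABPC_EV replicate 3). These counts were not made over all genes, and the share of the spread due to single libraries was not computed. FBMSC_EV replicate 1 was the highest library for 4 of the 29 members after scaling (ABCA1, NR1H2, MYLIP and SC5D) and the lowest for 7. The same library had the highest scaled sums of the 4 monocyte markers found (866.1, against 229.2 to 406.2 in the others) and of the 6 neutrophil markers (3026, against 371.1 to 2138). ABPC_EV replicate 3 was highest for 8 members and had the highest sum of 6 T cell markers (209.1, against 60.7 to 128.8). Between PBS and ABPC_EV the ranges of these sums overlapped: 252.9 to 406.2 and 229.2 to 299.6 for monocyte markers, 463.9 to 2138 and 371.1 to 982.2 for neutrophil markers, 75.0 to 107.6 and 78.8 to 209.1 for T cell markers, and 155.6 to 306.1 and 73.08 to 215.8 for B cell markers. The sums of the 4 platelet markers found also overlapped, at 156.4 to 191.4 in PBS and 50.07 to 364 in ABPC_EV. The scaled erythroid sums did not overlap, at 1.179e+06 to 2.832e+06 in PBS, 6.945e+05 to 9.259e+05 in FBMSC_EV and 3.097e+05 to 5.61e+05 in ABPC_EV. The part of these cell types in the members' values was not tested. FCN1 among the monocyte markers and PF4 among the platelet markers were not found by name, and no marker found was at 0 in all libraries.

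**Figure D4:**
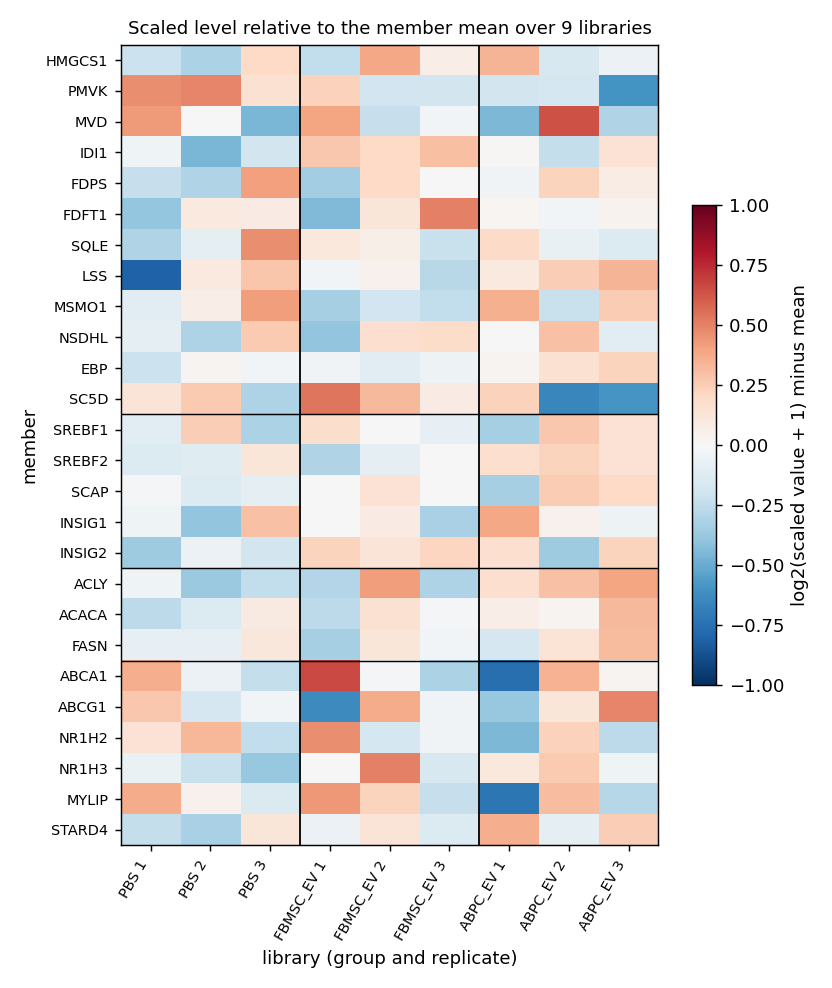
Log2 of (scaled value + 1) of the 26 tested members in each library, minus the member's mean over the 9 libraries; rows follow the classes, columns the groups. Deviations run from -0.81 to 0.66, and neighbouring libraries of 1 group often differ in sign, as for ABCA1, MYLIP and SC5D.

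Between the other groups the scaled members were no more ordered. For FBMSC_EV against PBS, 18 changes were positive (69.2%, against 52.7% of all genes) and 8 negative. Their median was 0.06, against 0.02 over all genes, and their range -0.41 to 0.49. The groups did not overlap for 3 members upwards (IDI1, SCAP and INSIG2, against 4.9% of all genes) and 1 downwards (MSMO1, against 4.84%). In ABPC_EV against FBMSC_EV, 13 were positive (50%, against 49.5% of all genes) and 13 negative. Their median was 0.01, against -0.00 over all genes, and their range -0.65 to 0.38. There the groups did not overlap for LSS, EBP and SREBF2 upwards (4.63% of all genes) and IDI1 downwards (6.14%). These 2 contrasts share the FBMSC_EV libraries, and each shares another group with the contrast of ABPC_EV with PBS, so the 3 are not independent.

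A further list of 41 genes of sterol and lipid handling that are not members was fitted in the same way; 39 were found and 25 tested. As deposited 24 of 25 were called higher in ABPC_EV than in PBS, against 90.9% of all genes, the exception being TM7SF2 (0.34, adjusted p = 0.392); the median was 1.70, against 1.41 over all genes. After scaling 0 of 25 were called, 11 changes were positive and 14 negative, and the median was -0.06, against 0.02 over all genes. The smallest p upwards was that of LPIN1, a phosphatidate phosphatase (1.97 in PBS and 4.42 in ABPC_EV; 0.80, SE 0.27, unadjusted p = 0.0147, adjusted p = 0.338). The smallest downwards was that of GGPS1, which makes geranylgeranyl diphosphate from a product of the sterol pathway (6.71 and 4.61; -0.47, SE 0.21, unadjusted p = 0.0499, adjusted p = 0.494).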

How the data were processed

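RNA from whole blood of 9 animals was prepared with an NEBNext Ultra kit and sequenced as paired reads, per the labels' protocols. Whether strand was kept is not stated, so overlapping and antisense genes cannot be told apart. How reads matching close copies of a gene, such as those of FDPS, were assigned is not stated either. The genome build was Mmul_10, per the submitters' processing notes; the sources used here name no aligner, counter or annotation. The authors deposited log2 values of a per-million quantity plus 0.5, as read from the values. These were turned back into per-million values, filtered (at least 1 in at least 3 libraries, leaving 10596 genes) and fitted on log2(value + 1) with limma 3.58.1 (R 4.3.3), trend on, group as the only term, as deposited and after median-ratio scaling from 10175 genes. The test was tried on simulated data. Whole reads were recovered for 21551 of 21551 genes above 0 in at least 2 libraries (tolerance 0.01 reads, looser for abundant genes where that failed). In a check with a shorter search 0 of 500 altered genes passed, all of them low genes above 0 in all 9 libraries. For genes above 0 in few libraries nearly any values find a match, so the count does not test those genes. The reads were used for depth and limma-voom. A divisor common to all libraries could not be seen, so true read numbers may be multiples of those given.

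The members and lists were chosen with earlier results of these data known. Members named with all values were the 4 with the smallest p in each direction for ABPC_EV against PBS after scaling, the 4 with the highest level, and any called after scaling; values of HMGCS1, MVD, IDI1, LSS, FASN, ABCA1, ABCG1, INSIG1 and, for part of the libraries, FDPS, SQLE, MSMO1, SCAP and INSIG2 were added after they were seen, to describe their classes. Libraries correlated at 0.897 to 0.955 within groups and none were identical. Alternatives were the pseudocount, 2 filters, the erythroid list taken out, limma-voom, only 2 groups in the fit, the replicate number as a block, and each library left out. No sequences are shown, and no promoter search was run.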

Additional observations from a re-analysis of the deposited data

How the results depend on the processing

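Taking the erythroid list out ended all calls of members for ABPC_EV against PBS as deposited (0 members, 17 of 15336 genes against 9639 of 10596). It moved the member median relative to all genes from 0.06 to 0.18, while the median of all genes was 0.71 against 1.41. With no filter on low values that relative median was 0.94 for ABPC_EV against PBS, 0.58 for FBMSC_EV against PBS and 0.45 for ABPC_EV against FBMSC_EV, because 24371 genes enter. With only the 2 groups compared in the fit, 1 member was called for FBMSC_EV against PBS as deposited, with 1063 genes in all against 28. The labels share replicate numbers without saying that these mark a common batch, and the correlations of same-numbered libraries ran from -0.25 to 0.28 over 9 pairs. With the replicate number as a block, 9 members were called for ABPC_EV against FBMSC_EV as deposited, with 3406 genes in all against 68, and 44 genes for FBMSC_EV against PBS; the block changed no other count of members called. In the other settings the total called for FBMSC_EV against PBS was 36 with a pseudocount of 0.5 and 34 with the filter on the mean. It was 1 with no filter, 2 without the erythroid list and 0 by voom. For ABPC_EV against FBMSC_EV the total was 46, 74, 11, 7 and 0 in the same order, and 23 with 2 groups in the fit. On the scaled values, where 0 genes were called, these settings gave at most 8 genes (5 of them higher), without the erythroid list. Voom called 8158 genes for ABPC_EV against PBS as deposited, and lost PMVK (0.55) and SC5D (0.84).

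Leaving out each library in turn gave 23 to 26 members called for ABPC_EV against PBS as deposited, where 24 to 26 were tested, 0 to 13 for FBMSC_EV against PBS and 0 to 14 for ABPC_EV against FBMSC_EV. In the same fits 82.5 to 92%, 0.123 to 43.3% and 0.416 to 45.6% of all genes were called higher. The relative medians ran from 0.02 to 0.30 (ABPC_EV against PBS) and from 0.00 to 0.20 (ABPC_EV against FBMSC_EV) as deposited, and from -0.01 to 0.15 (ABPC_EV against FBMSC_EV) after scaling. They ran from 0.03 to 0.10 as deposited and from 0.00 to 0.11 after scaling for FBMSC_EV against PBS, and from 0.06 to 0.18 after scaling for ABPC_EV against PBS. No member was called after scaling under any setting run. Without the erythroid list, the as-deposited changes that turned sign were PMVK (-0.09) for ABPC_EV against PBS, PMVK (-0.07) and MSMO1 (-0.07) for FBMSC_EV against PBS, and PMVK (-0.01), IDI1 (-0.08) and MYLIP (-0.05) for ABPC_EV against FBMSC_EV. After scaling the same setting turned MSMO1 (-0.02, ABPC_EV against PBS) and SQLE (-0.00, ABPC_EV against FBMSC_EV). Voom turned MVD (0.01) and MSMO1 (-0.04) for ABPC_EV against PBS and EBP (-0.01) for FBMSC_EV against PBS. Leaving out 1 library turned the sign of 38 scaled or deposited changes. For ABPC_EV against PBS after scaling they ran for ABCA1 from -0.36 to 0.17, ABCG1 from -0.14 to 0.28, FDFT1 from -0.08 to 0.16, FDPS from -0.00 to 0.35, MSMO1 from -0.12 to 0.18, MVD from -0.35 to 0.20, NSDHL from -0.02 to 0.26, SQLE from -0.19 to 0.20 and for SREBF1 from -0.04 to 0.27. For FBMSC_EV against PBS after scaling they ran for ABCA1 from -0.20 to 0.30, ABCG1 from -0.35 to 0.14, ACACA from -0.03 to 0.17, ACLY from -0.08 to 0.28, EBP from -0.07 to 0.06, FASN from -0.16 to 0.06, FDFT1 from -0.09 to 0.38, FDPS from -0.14 to 0.22, INSIG1 from -0.21 to 0.14, LSS from -0.29 to 0.27, MVD from -0.17 to 0.28, MYLIP from -0.10 to 0.24, NR1H2 from -0.19 to 0.14, NSDHL from -0.10 to 0.22, SQLE from -0.21 to 0.18 and for SREBF1 from -0.04 to 0.25. For ABPC_EV against FBMSC_EV after scaling they ran for ABCA1 from -0.45 to 0.09, ABCG1 from -0.09 to 0.40, FDFT1 from -0.30 to 0.17, FDPS from -0.01 to 0.26, HMGCS1 from -0.18 to 0.13, INSIG2 from -0.26 to 0.01, MVD from -0.41 to 0.14, NR1H3 from -0.15 to 0.19, NSDHL from -0.11 to 0.17, SCAP from -0.10 to 0.19, SQLE from -0.09 to 0.09 and for SREBF1 from -0.11 to 0.19. As deposited, SC5D ran from -0.19 to 0.11 for ABPC_EV against FBMSC_EV. The cause of these moves was not tested. With 3 animals per group, and under 50 reads in some library for 14 of 29 members, small scaled differences were not detectable. Larger ones could be missed too.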
